A study of Homo sapiens with 6 samples.

Results

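Leflunomide is a prodrug whose isoxazole ring opens in the body to give A771726, also called teriflunomide, the form that inhibits dihydroorotate dehydrogenase (DHODH). The comparison described here is between these 2 molecules, the ring-opened metabolite and the closed-ring parent, at the same dose and time. It rests on 4 of the 6 samples of a global run-on sequencing (GRO-seq) study: 2 of A375 cells given 25 µM A771726 for 48 h and 2 of A375 cells given 25 µM leflunomide for 48 h, with 2 samples given the solvent DMSO for 48 h printed beside them. A375 is an established human malignant melanoma line, so all 3 groups share 1 line and no other agent. The samples were chosen by their treatment labels and no measured value entered that choice. The labels speak of duplicates without saying whether they were separate cultures, so the p-values below measure the spread between these libraries, which may be technical.

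GRO-seq lets RNA polymerase that is already engaged on DNA extend its transcript in isolated nuclei, so reads mark transcription in progress rather than stored RNA. Polymerase II often pauses just past the start of a gene and is released by the kinase P-TEFb, which the small 7SK RNA and the protein HEXIM1 hold inactive. DHODH makes the pyrimidine precursor orotate in mitochondria, and cells short of pyrimidines can refill their pools by salvage of nucleosides. The promoter density counts reads near the start of a gene, the gene body density counts reads further in, and the traveling ratio divides the first by the second, so a higher ratio means that more of the signal lay at the start.

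The deposited tables hold means over the 2 replicates of a group for 12438 gene symbols, 10722 of them protein-coding. Gene body density could be compared in 8706 genes, promoter density in 8838 and the traveling ratio in 5173. Promoter sum, gene body sum and mean ratio together fix the 2 library values behind a mean in most rows, and both compounds' pairs of gene body values were recovered for 5629 genes past the gene body filter. In 1995 genes every library of all 3 groups could also be told apart, by what 1 promoter read is worth in it, and these entered a limma fit. The recovered libraries are called library 1 and library 2 and could not be matched to the replicate letters. Over all transcript rows so assigned within a group, promoter values summed to 39655 and 32342 reads in the leflunomide libraries and 61754 and 40861 in the A771726 libraries. Transcripts that share a promoter can count the same reads again. The rows also differ between the groups (9946 for leflunomide and 9762 for A771726), so these sums are not library depths.

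Of 11 melanocyte lineage symbols, which count PMEL also under its other name SILV, 6 were in the tables. These were ERBB3, MITF, MLANA, PAX3, PMEL and SOX10, with summed gene body densities of 0.551 (DMSO), 0.536 (leflunomide) and 0.417 (A771726). Keratinocyte markers were present as 3 of 6 genes (sums 0.156, 0.131 and 0.111 in the same order), fibroblast markers as COL1A1 alone of 6 (0.00375, 0.0026 and 0.0018) and immune markers as CD68 alone of 6 (0.232, 0.227 and 0.186). No gene absent from the tables was analysed, and they hold no gene with a DMSO traveling ratio above 7.5. That selection used DMSO values and neither of the compared groups.

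Gene body density was lower with A771726 than with leflunomide in most of the genes measured. The median log2 ratio of the group means was -0.47, 84.7% of genes lay below 0, and the quartiles were -0.75 and -0.18. The shift was similar at every level of transcription: over 10 equal bins of density the median lay between -0.50 and -0.44. Protein-coding genes had a median of -0.47 and non-coding genes one of -0.48.

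The single libraries showed the same order. The median gene body density over the 1995 genes was 0.0324 and 0.0301 in the leflunomide libraries and 0.0243 and 0.0197 in the A771726 libraries, beside 0.0353 and 0.03 in DMSO. Both A771726 libraries were below both leflunomide libraries, while the DMSO libraries lay at the level of leflunomide. The exact two-sided permutation test gave p = 0.333, the smallest value that 2 against 2 libraries can give. Gene by gene, both A771726 values were below both leflunomide values in 3102 of 5629 genes (55.1%) and above them in 136 (2.42%).

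The scale of the deposited densities bears on that shift. One promoter read added 0.0347 or 0.0376 to the density in the leflunomide libraries and 0.0241 or 0.0313 in those of A771726, a log2 ratio of the means of -0.385. The non-coding gene LOC284801 (now MIR663AHG) carried 45.4% of the summed promoter density with leflunomide and 61.9% with A771726, and 14.4% and 25.1% of the summed gene body density. Its gene body density was 61 in DMSO, 99.1 with leflunomide and 158 with A771726, and its libraries could not be separated. Without it, the summed gene body density of all other genes had a log2 ratio of -0.316 between the compounds. These quantities moved with the median shift and their part in it was not tested, so ratios below are also given relative to the median gene.

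**Figure D1:**
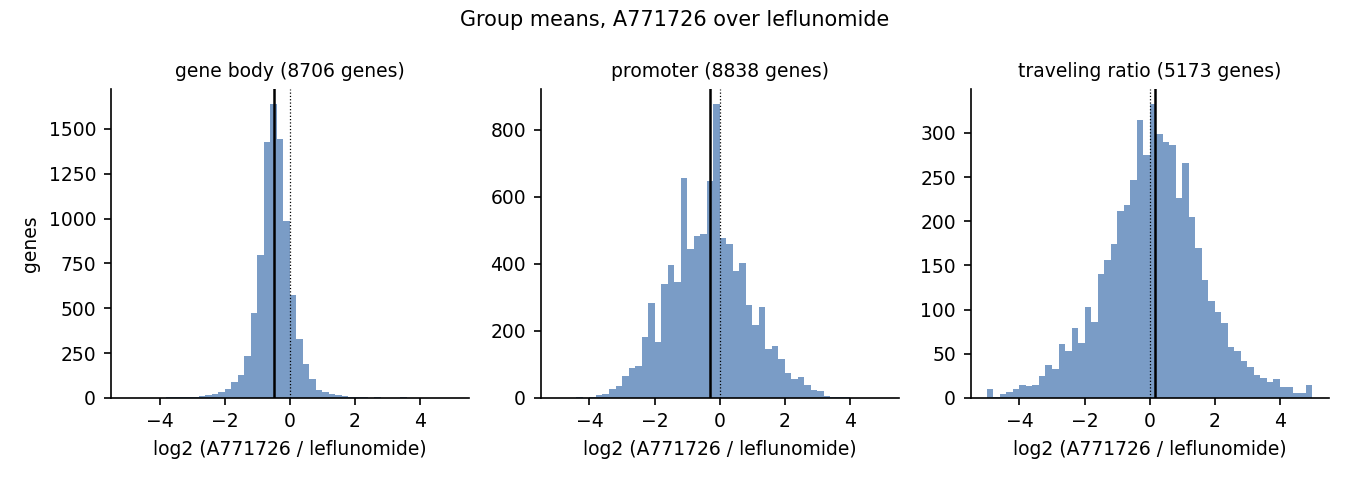
Histograms of log2 (A771726 / leflunomide) over genes for gene body density, promoter density and the traveling ratio, from the group means, with values beyond 5 in either direction drawn in the end bins. The solid line is the median (-0.47, -0.30 and 0.15) and the dotted line is 0, and the gene body ratios are the narrowest of the 3.

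At least a 2-fold difference in gene body density, as deposited, was seen in 90 genes higher with A771726 (1.03%) and 1078 lower (12.4%). Relative to the median gene the counts were 294 higher (3.38%) and 328 lower (3.77%). Non-coding genes passed 2-fold relative to the median gene more often than coding genes, 17.0% against 5.40% (7.14% of all genes), and so did genes of the lowest density bin against the highest, 12.2% against 3.33%. The spread between compounds was close to the spread between libraries of 1 compound: the SD over genes of the centred difference was 0.521 on the log2 scale, and 0.482 is what the spread within groups alone gives.

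In the library fit no gene passed an adjusted p of 0.05 for gene body density (limma, Benjamini-Hochberg, smallest adjusted p 0.182). At an unadjusted p under 0.05 stood 288 of 1995 genes (14.4%), 269 of them lower with A771726 and 19 higher, with a median difference of -0.50. After each library was centred on its median the count was again 0 (smallest adjusted p 0.717), with 110 genes at an unadjusted p under 0.05 (5.51%), 57 higher and 53 lower. After centring, both A771726 libraries lay above both leflunomide libraries in 372 genes (18.6%) and below them in 364 (18.2%).

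The HEXIM1 and P-TEFb group lay close to the median gene. HEXIM1, the inhibitor of P-TEFb, had gene body densities of 0.195 and 0.230 in the leflunomide libraries and 0.183 and 0.185 in the A771726 libraries, beside 0.206 and 0.260 in DMSO. The A771726 values were below both leflunomide values, and the log2 ratio relative to the median gene was 0.27. Its paralog HEXIM2 had 0.0435 and 0.0808 with leflunomide and 0.0378 and 0.0396 with A771726, a relative log2 ratio of -0.18. For HEXIM2 the centred fit gave -0.12 (95% interval -0.98 to 0.74), wide enough for a change of nearly 2-fold downwards.

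MEPCE, which caps and stabilises 7SK RNA, had gene body values of 0.182 and 0.270 with leflunomide and 0.137 and 0.266 with A771726, so the groups overlapped. Its promoter density was 1.05 and 1.06 with leflunomide and 1.30 and 2.48 with A771726, beside 0.558 and 0.728 in DMSO, and these 3 groups did not overlap. The absence of genes with a DMSO traveling ratio above 7.5 can hold DMSO promoter values down, so they are no starting level. Over all genes with recovered libraries, both A771726 promoter values were above both leflunomide values in 7.67%. LARP7, the other constant partner of 7SK RNA, had a gene body density of 0.0178 and 0.0184 with leflunomide and 0.0097 and 0.0136 with A771726. CCNT1, the cyclin of P-TEFb, had 0.0315 and 0.0407 with leflunomide and 0.0253 and 0.0292 with A771726. Over the 7 members past the filter the median relative to the median gene was 0.08, with 4 above and 3 below it and none 2-fold away. Recovered libraries were counted whether past the filter or not. Both A771726 libraries were below both leflunomide libraries in 6 of the 7 members that had them, beside 55.1% of the genes past the filter.

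DHODH itself had gene body densities of 0.0186 and 0.0204 with leflunomide and 0.0087 and 0.0246 with A771726, beside 0.0113 and 0.0136 in DMSO. The leflunomide values lay inside the range of the A771726 values, and the centred difference was 0.13 (95% interval -0.80 to 1.06). Its promoter density was 0.208 and 0.376 with leflunomide, 0.0962 and 0.157 with A771726 and 0.0438 and 0.052 in DMSO, 3 ranges without overlap. These are few reads, and each DMSO value is 1 read. As for MEPCE, the DMSO promoter values are no starting level for the compounds. Over all genes with recovered libraries, both A771726 promoter values were below both leflunomide values in 21.8%. The promoter difference between the compounds was -1.08 in the fit, with an unadjusted limma p of 0.382.

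The other genes of de novo pyrimidine synthesis followed the median gene. CAD, which carries the first 3 steps, had 0.0458 and 0.0519 with leflunomide and 0.0278 and 0.0339 with A771726, a centred difference of -0.16 (95% interval -0.84 to 0.52). UMPS, which turns orotate into UMP, had 0.0318 and 0.0478 with leflunomide and 0.0195 and 0.0287 with A771726. TYMS, the thymidylate synthase, had 0.0635 and 0.0813 with leflunomide and 0.0283 and 0.0416 with A771726. NME2, a nucleoside diphosphate kinase, had 0.0733 and 0.0826 against 0.025 and 0.0449, and lies next to the similar gene NME1, with which reads may be shared. For these 4 genes the A771726 values were the lower ones without overlap, and their relative log2 ratios were -0.15, -0.20, -0.53 and -0.64. At the other end, DTYMK, the thymidylate kinase, overlapped between compounds (0.0308 and 0.0538 with leflunomide, 0.0321 and 0.0526 with A771726) and had the highest relative log2 ratio of the group, 0.48.

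Over the 10 members of this pathway past the filter the median relative to the median gene was -0.06, with 4 above and 6 below it and none 2-fold away. Members with recovered libraries, counted whether past the filter or not, also numbered 10. In 6 of them both A771726 libraries were below both leflunomide libraries, near the 55.1% of the genes past the filter. None of the 3 members in the library fit reached an unadjusted p of 0.05 by limma, as deposited or centred.

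Among salvage genes the uridine-cytidine kinase UCK1 stood lowest. Its gene body density was 0.0532 and 0.0715 with leflunomide and 0.0129 and 0.0326 with A771726, and the centred difference was -1.01 (95% interval -1.93 to -0.08, unadjusted limma p 0.0376, which does not pass over all genes). Its sister kinase UCK2 had 0.0275 and 0.0324 with leflunomide and 0.0143 and 0.018 with A771726. TK1, the cytosolic thymidine kinase, had 0.0214 and 0.0355 against 0.0107 and 0.0164. In these 3 kinases the groups did not overlap. DCTD, which deaminates dCMP, lay the other way: 0.0202 and 0.0221 with leflunomide and 0.0246 and 0.0312 with A771726, a relative log2 ratio of 0.84. The 10 salvage and transport genes past the filter had a relative median of -0.01, 5 above and 5 below. In the 9 members with recovered libraries, counted whether past the filter or not, A771726 was below leflunomide in 5 and above it in 1. The genes past the filter had 55.1% and 2.42%.

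**Figure D2:**
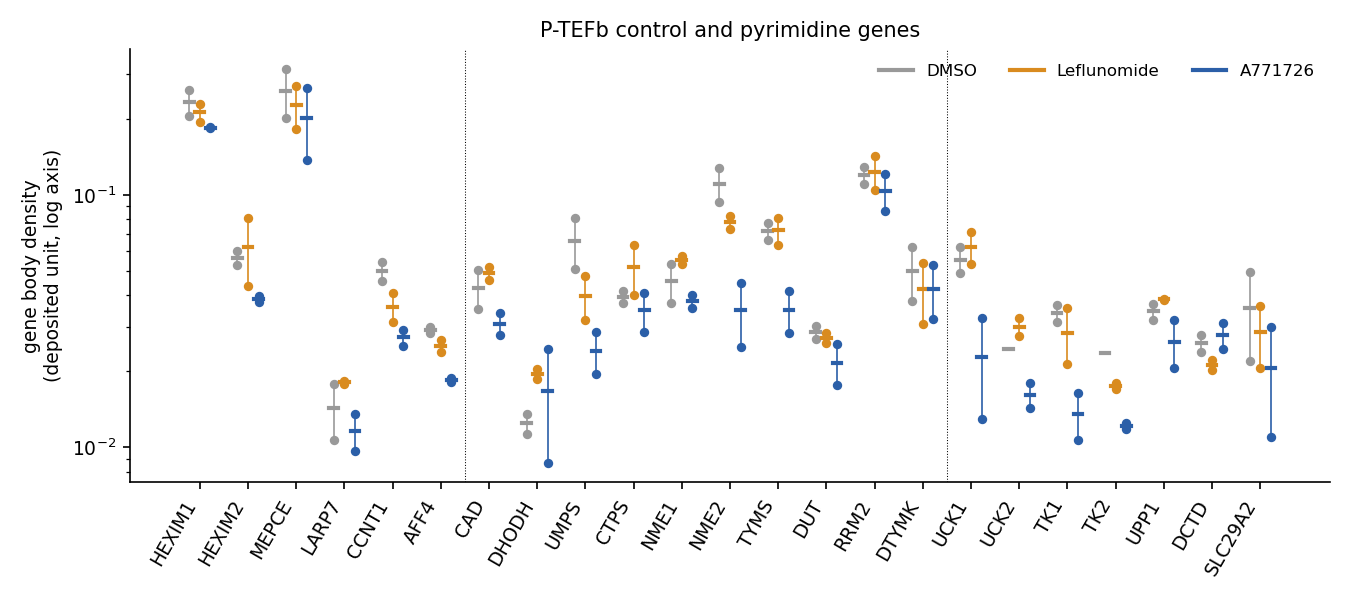
Gene body density (log axis, deposited unit) of the P-TEFb group, de novo pyrimidine and salvage genes, separated by dotted lines. Points are recovered single libraries, bars are group means, and genes with a bar alone in a group had no recovered libraries there; for most genes the A771726 points lie below those of leflunomide, with DHODH, DTYMK and DCTD among the exceptions.

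Leflunomide is a known ligand of the aryl hydrocarbon receptor (AHR), which switches on genes of drug metabolism. Its usual targets were poorly covered: 7 of 11 genes of the list were in the tables and 6 passed the gene body filter, with a relative median of -0.02, 3 above the median gene and 3 below. AHRR, the repressor that AHR itself induces, had group means of 0.0282 with leflunomide and 0.0266 with A771726, a relative log2 ratio of 0.40, the highest of the list. TIPARP, which encodes an enzyme that represses AHR, had 0.0615 and 0.0755 with leflunomide and 0.0286 and 0.0462 with A771726, and NQO1, a quinone reductase, had 0.0853 and 0.0892 against 0.0361 and 0.064. Neither pair of ranges overlapped, with A771726 the lower one as in 55.1% of all genes. Their relative log2 ratios were -0.36 and -0.30. CYP1B1, a cytochrome P450 induced by AHR, fell below the filter on mean density, with group means of 0.0074 (DMSO), 0.017 (leflunomide) and 0.00065 (A771726).

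The widest difference among inflammatory genes concerned the chemokine CXCL3, a neutrophil attractant. Its gene body density was 0.0768 and 0.0786 in the leflunomide libraries and 0.0038 and 0.0059 in the A771726 libraries, with a DMSO mean of 0.0386. Its promoter density went the other way: 0.0592 and 0.104 for leflunomide, below 0.209 and 0.219 for A771726. The traveling ratio was therefore 0.771 and 1.32 with leflunomide and 35.5 and 57.7 with A771726. Neither density overlapped between the compounds. On the gene body scale the log2 ratio relative to the median gene was -3.03, the lowest of all protein-coding genes past the filter. CXCL3 was not in the library fit, because its DMSO promoter is listed at 0. Its promoter values 0.0592 and 0.209 are also not whole reads of a library, as the fit requires. Of the recovered promoter values, 77.3% were whole reads with leflunomide and 80.3% with A771726.

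The neighbouring chemokine CXCL2 had a group mean of 0.0293 with leflunomide, not separable into libraries, and 0.0076 and 0.0088 with A771726, a relative log2 ratio of -1.13. CXCL1, the third of these chemokines, had 0.0198 and 0.032 with leflunomide and 0.0254 and 0.0289 with A771726, overlapping ranges, and a centred difference of 0.57 (95% interval -0.21 to 1.34). The 3 genes are close copies, and reads may have been split between them. Their sequences around the start, 150 bases before to 50 bases after it, are shown because the genes differ in gene body density while their promoters hold the same NF-kB stretch. Whether the genes differ from each other in their response was not tested. The sequences are from RefSeq on GRCh38.p14, whereas the densities were made on hg18. Capitals mark the matches to the NF-kB consensus (an overlapping pair on opposite strands in each promoter) and to GGGCGG.
CXCL1 (chr4:73869243-73869442, plus strand): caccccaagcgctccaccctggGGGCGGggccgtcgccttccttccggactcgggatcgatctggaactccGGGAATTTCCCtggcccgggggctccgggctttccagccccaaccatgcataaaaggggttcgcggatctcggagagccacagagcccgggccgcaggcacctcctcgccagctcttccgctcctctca
CXCL2 (chr4:74099146-74099345, minus strand): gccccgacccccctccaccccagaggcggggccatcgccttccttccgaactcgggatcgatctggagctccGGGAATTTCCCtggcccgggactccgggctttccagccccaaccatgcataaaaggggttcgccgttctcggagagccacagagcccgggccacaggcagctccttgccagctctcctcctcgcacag
CXCL3 (chr4:74038640-74038839, minus strand): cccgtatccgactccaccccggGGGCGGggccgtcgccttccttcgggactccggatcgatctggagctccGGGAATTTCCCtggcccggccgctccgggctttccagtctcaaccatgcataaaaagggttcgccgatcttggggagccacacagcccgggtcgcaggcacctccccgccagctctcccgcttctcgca
The NF-kB stretch begins 79 bases before the start in CXCL1 and CXCL3 and 78 before it in CXCL2. The consensus matched 7.57% of 35116 RefSeq promoter windows of the same length on either strand. GGGCGG, the core of the Sp1 site, was found once in CXCL1 and CXCL3, not in CXCL2, and in 39.8% of windows. The letters TATAAA were in none of the 3 and in 7.65% of windows. These matches describe the letters alone.

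Of 11 NF-kB and inflammatory genes in the tables, 10 passed the gene body filter. Their median relative to the median gene was 0.08, 6 above and 4 below it, with CXCL3 and CXCL2 the only members 2-fold away. On the traveling ratio 4 members had a finite value above 0 in all 3 groups, CXCL3 not among them because its DMSO value is 0, and all 4 lay above the median gene, with a relative median of 1.36.

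**Figure D3:**
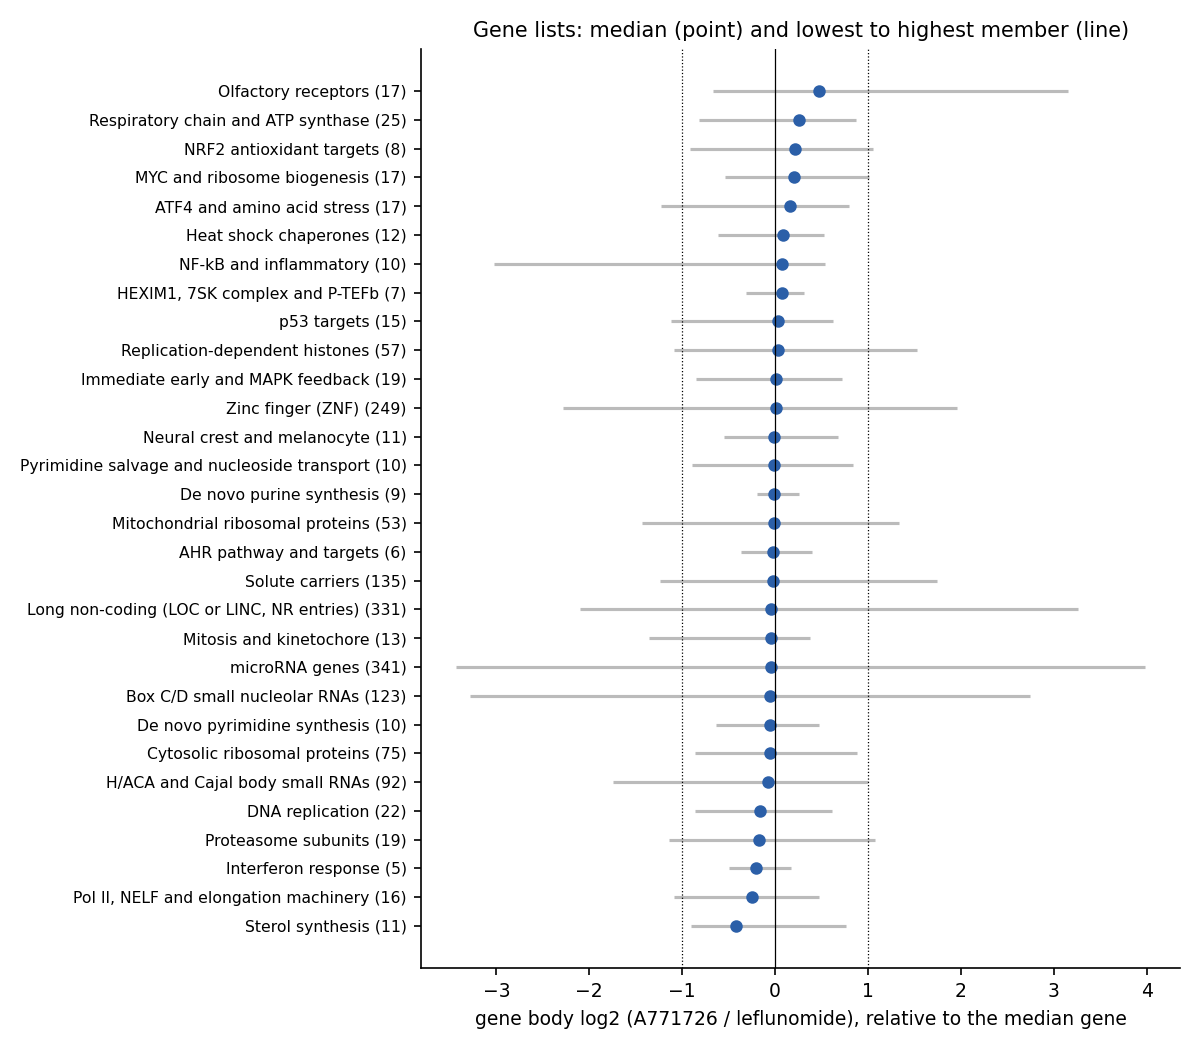
Median (point) and lowest to highest member (line) of the gene body log2 (A771726 / leflunomide) relative to the median gene, for each gene list or name family with at least 3 members past the filter; the number of members is in brackets. Dotted lines mark 2-fold, and every median lies between -0.42 (sterol synthesis) and 0.47 (olfactory receptors).

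The remaining stress lists held single genes that stood apart rather than shifted groups. Among 15 p53 targets (relative median 0.03), TRIAP1, a p53-regulated inhibitor of apoptosis, had 0.102 and 0.114 with leflunomide and 0.0168 and 0.0517 with A771726. BAX, a pro-apoptotic pore former, had 0.0818 and 0.0983 with leflunomide and 0.0999 and 0.101 with A771726, slightly above without overlap. Among 17 genes of the ATF4 amino acid stress response (relative median 0.16, 11 above and 6 below), DDIT3, which encodes the stress transcription factor CHOP, had 0.223 and 0.248 with leflunomide and 0.0651 and 0.0914 with A771726, beside 0.188 and 0.230 in DMSO. The leflunomide and DMSO ranges of DDIT3 overlapped, and A771726 lay below both. SHMT2, the mitochondrial serine hydroxymethyltransferase, had 0.0615 and 0.0645 with leflunomide and 0.0629 and 0.0956 with A771726, overlapping ranges.

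Among 8 NRF2 antioxidant genes the relative median was 0.22, with 4 above the median gene and 4 below. SRXN1, which restores oxidised peroxiredoxins, had 0.0312 and 0.046 with leflunomide and 0.0279 and 0.0584 with A771726, overlapping ranges. Among 19 immediate early and MAPK feedback genes (relative median 0.01), FOS had gene body densities of 0.0366 and 0.0372 with leflunomide and 0.0117 and 0.0152 with A771726, but the DMSO libraries ran from 0.0051 to 0.0384. The promoter of FOS, an immediate early transcription factor, read 0.338 and 0.416 with leflunomide and 0 and 0.0962 with A771726.

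Sterol synthesis genes had the lowest median of the lists. Of 11 members past the filter, 3 lay above the median gene and 8 below, with a relative median of -0.42. None of these was 2-fold away from the median gene. Recovered libraries were counted whether past the filter or not, so these 11 members are not the same 11. In 10 of them both A771726 libraries were below both leflunomide libraries, beside 55.1% of the genes past the filter. FDPS, the farnesyl diphosphate synthase, had 0.095 and 0.122 with leflunomide and 0.0195 and 0.0614 with A771726. INSIG1, the sterol-regulated retention protein, was the member with the highest ratio, 0.0275 and 0.0298 with leflunomide and 0.0267 and 0.0446 with A771726. None of the 4 members in the library fit was called.

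Respiratory chain and ATP synthase genes lay at the other side of the median gene: 17 of 25 above it, with a relative median of 0.26. In 8 of 20 members with recovered libraries the A771726 values were both below the leflunomide values, against 55.1% of all genes. NDUFA6, a complex I subunit, had the highest relative log2 ratio of the list, 0.87, on group means of 0.0147 with leflunomide and 0.02 with A771726, beside 0.0453 in DMSO. NDUFB8, a subunit of the same complex, had the lowest, -0.81, from 0.0434 and 0.0518 for leflunomide against 0.0021 and 0.0343 for A771726.

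The other growth lists stayed within the same band. MYC and ribosome biogenesis genes had a relative median of 0.20, with 12 of 17 above the median gene. DNA replication genes had -0.16, with 16 of 22 below it, and proteasome subunits -0.17, with 14 of 19 below. The Pol II, NELF and elongation list had -0.25, with 11 of 16 below, led by RDBP (now NELFE), a subunit of the pausing factor NELF, at 0.0408 and 0.0419 with leflunomide and 0.0039 and 0.0213 with A771726. PTTG1, the securin that guards sister chromatids, was the lowest of 13 mitosis genes (relative median -0.05), at 0.054 and 0.108 with leflunomide and 0.0078 and 0.0346 with A771726. Cytosolic ribosomal protein genes (75, relative median -0.06), mitochondrial ones (53, -0.02), zinc finger genes (249, 0.01) and replication-dependent histone genes (57, 0.03) lay at the median gene.

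In the centred library fit the genes with the smallest p among those lower with A771726 were C17orf61, MIR3605, MIR4721, MIR146A, VLDLR, ZBTB39, MIR4754 and TSR2. C17orf61 (now TMEM256), a membrane protein gene, had 0.0432 and 0.0793 with leflunomide and 0.0037 and 0.0049 with A771726, beside 0.0404 and 0.0681 in DMSO. Its centred difference was -2.76 (95% interval -3.78 to -1.74), and its adjusted limma p was 0.717, as for the other genes of this paragraph. ZBTB39, a zinc finger gene, had 0.0152 and 0.0261 with leflunomide, 0.0018 and 0.0042 with A771726 and 0.015 and 0.0354 in DMSO. In both of these genes the DMSO and leflunomide ranges overlapped and A771726 lay below them. The choice by p favours low A771726 values, also beside DMSO. VLDLR, a lipoprotein receptor, had 0.0204 and 0.0235 with leflunomide, 0.0032 and 0.0073 with A771726 and 0.0123 and 0.0178 in DMSO, 3 ranges without overlap, and a centred difference of -1.28 (95% interval -2.03 to -0.52).

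Of the microRNA genes among them, MIR146A, MIR3605 and MIR4754 had leflunomide above DMSO and A771726 below it, in densities as deposited. MIR146A, the gene of a microRNA that restrains NF-kB signalling, had 0.150 and 0.163 with leflunomide, 0.0403 and 0.0516 with A771726 and 0.0557 and 0.103 in DMSO. MIR3605 had 0.169 and 0.245, 0.0335 and 0.0619, and 0.0668 and 0.103 in the same order. MIR4754 had 0.178 and 0.224, 0.0517 and 0.0741, and 0.101 and 0.132. MIR4721 had 0.0746 and 0.0971, 0.0202 and 0.0259, and 0.0559 and 0.0753, with leflunomide and DMSO overlapping. For each of the 4 the A771726 values were the lowest of the 6 libraries. The choice by p favours low A771726 and high leflunomide values, also beside DMSO. The library medians over the 1995 fitted genes were also lowest with A771726, at 0.0243 and 0.0197 beside 0.0353 and 0.03 in DMSO. The transcripts of these microRNA genes are short, and a host transcript that runs over the hairpin is counted there too. The mature microRNAs of these 4 genes are shown, 5′ to 3′, with the seed (bases 2 to 8) in capitals, because they are what such transcripts can give rise to. They are from RefSeq on GRCh38.p14.
hsa-miR-146a-5p (chr5:160485372-160485393): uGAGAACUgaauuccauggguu
hsa-miR-146a-3p (chr5:160485408-160485429): cCUCUGAAauucaguucuucag
hsa-miR-3605-5p (chr1:33332449-33332471): uGAGGAUGgauagcaaggaagcc
hsa-miR-3605-3p (chr1:33332405-33332427): cCUCCGUGuuaccuguccucuag
hsa-miR-4721 (chr16:28843927-28843948): uGAGGGCUccaggugacggugg
hsa-miR-4754 (chr19:58386827-58386849): aUGCGGACcuggguuagcggagu
No 2 of these mature forms share a seed. Run-on reads report transcription of the hairpin's locus and not the amount of the mature form.

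MicroRNA genes as a family lay at the median gene (341 genes, relative median -0.05, 162 above and 179 below it). They varied widely, with 38 of the 341 past 2-fold upwards and 60 past it downwards, relative to the median gene, where all genes had 3.38% and 3.77%. Box C/D small nucleolar RNA genes (123, relative median -0.05) and H/ACA and Cajal body RNA genes (92, -0.08) were centred alike.

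The genes with the smallest p among those higher with A771726 were NAPRT1, POLM, GHDC, WDR13, LOC100287177, PAPD7, C19orf73 and SNAR-A10. NAPRT1 (now NAPRT), which makes NAD from nicotinic acid, had 0.01 and 0.0144 with leflunomide, 0.036 and 0.0438 with A771726 and 0.0545 and 0.0797 in DMSO. Its centred difference was 2.03 (95% interval 1.15 to 2.91, adjusted limma p 0.717). POLM, a DNA polymerase of end joining, had 0.0208 and 0.027 with leflunomide, 0.0511 and 0.0623 with A771726 and 0.0432 and 0.0627 in DMSO, and a centred difference of 1.65 (95% interval 0.87 to 2.43). WDR13, a WD repeat protein gene, had 0.0173 and 0.02, 0.0333 and 0.0397, and 0.0429 and 0.051 in the same order. PAPD7, a poly(A) polymerase gene, had 0.0197 and 0.0242, 0.0367 and 0.0368, and 0.0363 and 0.0431. In these 4 genes the leflunomide libraries were the lowest of the 6, and POLM and PAPD7 with A771726 overlapped with DMSO. The choice by p favours low leflunomide values, also beside DMSO.

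SNAR-A10 stood differently. This small non-coding RNA gene is 1 of 10 symbols with identical values in the tables, so its copies could not be told apart. It had 0.488 and 0.546 with leflunomide, 0.742 and 0.879 with A771726 and 0.270 and 0.343 in DMSO. These 3 groups did not overlap and A771726 was highest, a place that the choice by p favours.

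**Figure D4:**
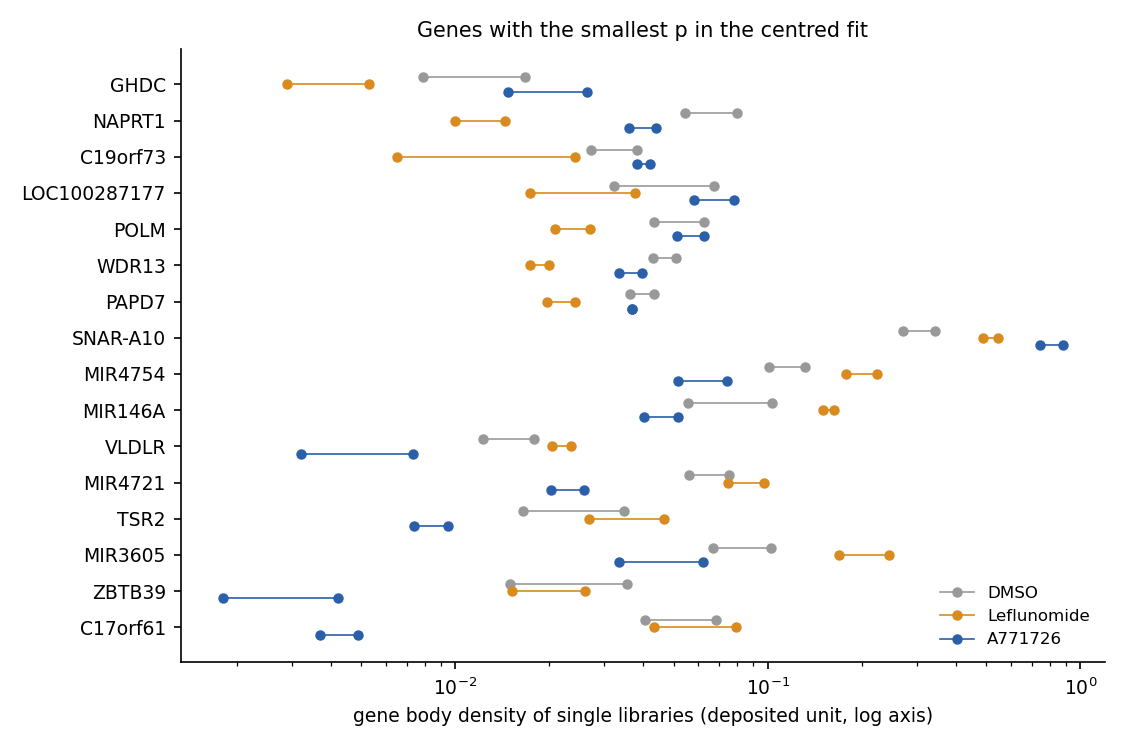
Gene body density of each recovered library (points, log axis, deposited unit) for the 16 genes with the smallest unadjusted p in the centred fit, 8 in each direction, with lines joining the 2 libraries of a group. In all 16 the leflunomide and A771726 points do not overlap, which the choice by p favours. After centring, both A771726 libraries lay above both of leflunomide in 18.6% of all fitted genes and below them in 18.2%. In NAPRT1, POLM, WDR13 and PAPD7 leflunomide lies below DMSO as well, which the same choice favours.

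Ranked by the group means, further genes outside the library fit stood far from the median gene. MDK, the growth factor midkine, had means of 0.0019 with leflunomide and 0.029 with A771726, beside 0.0182 in DMSO, a relative log2 ratio of 3.40. IFITM2, an interferon-induced membrane protein gene, had 0.0169 and 0.026 with leflunomide and 0.036 and 0.103 with A771726, a relative log2 ratio of 2.08. GFER, a sulfhydryl oxidase of mitochondria, had 0.0396 and 0.0716 with leflunomide and 0.003 and 0.0092 with A771726, a relative log2 ratio of -2.33. HOXD13, a homeobox gene, had means of 0.037 and 0.0032, and TMEM17, a ciliary membrane protein gene, 0.0264 and 0.0008. KLF2, a transcription factor gene, was listed at 0 with A771726 and had 0.0077 and 0.0293 with leflunomide. OR51B6, an olfactory receptor gene, was listed at 0 with leflunomide and at 0.0119 with A771726. MIR3121 and MIR3132 were likewise listed at 0 with leflunomide and at 0.0229 with A771726, and MIR1206 at 0.0309 with leflunomide and at 0 with A771726. The values of MIR3121, MIR3132, MIR1206 and OR51B6 are low, and no fold is given against a value of 0.

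Promoter densities differed far more between the compounds, and between libraries of 1 compound too. The median log2 ratio of the means was -0.30. Relative to the median gene, 1709 of 8838 genes were at least 2-fold higher with A771726 (19.3%) and 1854 lower (21%). As deposited the counts were 1193 higher (13.5%) and 2706 lower (30.6%). The 2 libraries of a group were at least 2-fold apart in 53.9% of the fitted genes with leflunomide and 67.3% with A771726, and the SD within a group was 1.17 and 1.34 on the log2 scale, where gene bodies had 0.417 and 0.540. The median promoter density was 0.104 and 0.0752 in the leflunomide libraries and 0.0722 and 0.0626 in the A771726 libraries. Both A771726 libraries were below both leflunomide libraries in 1226 of 5629 genes (21.8%) and above them in 432 (7.67%).

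A single promoter passed the adjusted test (1 of 1995 genes, 0.0501%), while 24 stood at an unadjusted p under 0.05 (1.2%). USMG5 (now ATP5MK), which encodes a small subunit of the mitochondrial ATP synthase, had a promoter density of 0.798 and 1.09 with leflunomide, 0 and 0.505 with A771726 and 0.416 and 0.525 in DMSO. The fitted difference was -3.32 (95% interval -4.81 to -1.82, adjusted limma p 0.0280), and the size depends on the pseudocount because 1 library reads 0. Without that library, A771726 library 2, the difference was -0.86 with an adjusted p of 0.993. The adjusted p was also above 0.05 without either leflunomide library (0.995 and 0.994) or either DMSO library (0.995 in both cases), with the 2 compounds alone in the fit (0.0836) and after centring (0.0526). The gene body density of USMG5 overlapped between the compounds, with 0.0717 and 0.0821 for leflunomide and 0.0517 and 0.0738 for A771726. Its start region is shown because it holds the single call, with GGGCGG in capitals, from RefSeq on GRCh38.p14.
ATP5MK (chr10:103396426-103396625, minus strand): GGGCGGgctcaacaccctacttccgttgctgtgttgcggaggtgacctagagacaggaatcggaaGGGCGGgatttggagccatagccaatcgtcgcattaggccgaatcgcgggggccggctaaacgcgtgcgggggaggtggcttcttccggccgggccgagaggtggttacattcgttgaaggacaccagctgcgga
It held no match to the NF-kB consensus or to TATAAA.

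Without A771726 library 1 the fit called 3 promoters lower with A771726, and all 3 read 0 in the remaining A771726 library. Beside USMG5 they were the snoRNA gene SNORD83A, with 0.312 and 0.865 for leflunomide and 0 and 0.505 for A771726, and STAT6, a transcription factor of interleukin-4 signalling, with 0.416 and 0.602 and with 0 and 0.361.

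Among genes with a mean promoter density of at least 0.2 over the compounds, the promoters lowest with A771726 included MRPL18, a mitochondrial ribosomal protein gene, at 0.347 and 0.526 with leflunomide and 0.0241 and 0.0313 with A771726, and BBS10, a chaperonin-like ciliopathy gene, at 0.333 and 0.427 against 0.0241 and 0.0313. PLIN2, which coats lipid droplets, had 0.338 and 0.486 against 0 and 0.0681. These genes were chosen as extremes of the ratio between the compounds, so the order of the compounds follows from the choice. The values 0.0241 and 0.0313 are 1 read each in the A771726 libraries. In DMSO the promoter of MRPL18 read 0 and 0.0438, that of BBS10 0.052 and 0.214 and that of PLIN2 0.151 and 0.263. The leflunomide values were above those of DMSO in all 3, which the choice also favours because it takes high leflunomide promoters. Over all genes the median promoter density was 0.0219 in DMSO and 0.0347 with leflunomide. The promoters highest with A771726 included CLIC4, a chloride intracellular channel gene, at 0.0376 and 0.138 with leflunomide and 0.458 and 0.501 with A771726, beside 0.104 and 0.146 in DMSO. MKI67, which encodes the proliferation antigen Ki-67, had 0.0376 and 0.104 with leflunomide, 0.289 and 0.376 with A771726 and 0.0726 and 0.104 in DMSO. For CLIC4 and MKI67 the leflunomide and DMSO ranges met or overlapped and A771726 lay above them. Here too the order of the compounds follows from the choice, which also favours A771726 values above those of DMSO. The value 0.0376 is 1 read in a leflunomide library. The gene body density of MKI67 was 0.0742 and 0.0807 for leflunomide against 0.0588 and 0.0667 for A771726.

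No gene passed the adjusted test for the traveling ratio. Its median log2 ratio over 5173 genes was 0.15, with 1390 genes at least 2-fold higher with A771726 (26.9%) and 1083 lower (20.9%). Relative to the median gene the counts were 1186 (22.9%) and 1231 (23.8%). Both A771726 libraries lay above both leflunomide libraries in 862 of 5629 genes (15.3%) and below them in 763 (13.6%). The median ratio over 527 genes with promoter reads in all 6 libraries was 3.83 and 3.34 with leflunomide and 3.90 and 4.54 with A771726, beside 3.27 and 2.84 in DMSO. The absence of genes with a DMSO ratio above 7.5 holds the DMSO values down, so they are no starting level for the compounds. Both A771726 medians were the higher ones, and the exact two-sided permutation test gave p = 0.333, again the smallest possible. In the library fit 0 genes passed (smallest adjusted limma p 0.998) and 45 stood at an unadjusted p under 0.05 (2.26%).

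Genes at the ends of the traveling ratio often rested on a promoter or gene body value near 0 in 1 library. THOC4 (now ALYREF), an mRNA export adaptor, had ratios of 0 and 2.69 with leflunomide and 7.96 and 21.6 with A771726, on promoter densities of 0 and 0.173 against 0.250 and 0.409. PLD6, a mitochondrial phospholipase gene, had a mean ratio of 124 with A771726, from libraries at 2.43 and 245, where 1 library's gene body density was 0.0023. MIR3605 had 0.566 and 0.667 with leflunomide and 3.11 and 13.1 with A771726, with a higher promoter and a lower gene body density. AP1G1, an adaptor subunit of clathrin coats, had 11 and 19.9 for the parent drug against 0.635 and 3.67 for the metabolite.

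In sterol synthesis genes the ratio spread furthest: the 10 members compared had a relative median of -1.25, 2 above and 8 below the median gene, with 6 at least 2-fold lower and 2 at least 2-fold higher, where all genes had 23.8% and 22.9%. CYP51A1, the lanosterol demethylase, had ratios of 9.59 and 19.5 with leflunomide and 0 and 0.764 with A771726, and MVD, the mevalonate decarboxylase, had 0 and 2.57 against 36.4 and 112. In the P-TEFb group 5 of 7 members lay above the median gene and 2 below, and in de novo pyrimidine synthesis 5 and 5.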

How the data were processed

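Per the submitters' processing notes, Bowtie 0.12.9, bedtools and hg18 were used; no label or header gives the windows, the use of strand or the scaling between libraries. Promoter and gene body values are deposited read densities that the authors averaged over 2 replicates, and the deposited traveling ratio is the mean of the replicates' ratios. The headers write A771762, read here as A771726. One row per symbol was kept, by highest mean gene body density; genes under the 30th percentile of mean density were left out, and log2 ratios used pseudocounts of 0.0022 (gene body) and 0.01735 (promoter), so changes of low genes are understated. The traveling ratio took no pseudocount. Library values were solved from the mean densities and the mean ratio, for 98.2% of eligible leflunomide rows, 98.2% of A771726 rows and 97.9% of DMSO rows, and favour genes with promoter reads in every group. limma 3.58.1 (trend, robust, R 4.3.3) was fitted to all 3 groups with Benjamini-Hochberg adjustment; solver and fit were tested on simulated data. Group means had no test. Alternatives covered filters, pseudocounts, the row kept, centring, the groups fitted and each library left out; those on any entry of a gene, unordered pairs and the DMSO libraries were chosen after seeing the data. Members and lists were chosen with earlier results of these data known. Named genes were the extremes of each group-mean measure, the 8 smallest p in each direction of the centred fit, members of the P-TEFb, pyrimidine and AHR lists, and at most 3 at each end of other lists (some are not reported here); SNORD83A and STAT6 were added after their values were seen.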

Additional observations from a re-analysis of the deposited data

How the results depend on the processing

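No paired analysis was possible because the recovered libraries carry no replicate letter. Library 1 is the one with the lower value per read in each group, and whether libraries of the same number belong to the same replicate is unknown. Of the values recomputed under alternatives for the summaries of a comparison, 161 stayed within 1.5 times of a count or within 1 SD of a value. Of the others, 46 moved further and 3 changed sign. For named genes, 341 kept direction and side of the threshold and 13 kept direction alone. Among the 341, 148 belong to genes named from the means, with 2-fold as the threshold. A further 189 belong to the 16 genes of the centred fit. Their threshold was an adjusted p of 0.05, which no gene passed in any setting, so these 189 show direction alone. Genes at least 2-fold higher in gene body density numbered 140 with no filter, 47 at the 50th percentile, 58 for coding genes alone, 30 with a 5 times larger pseudocount and 294 relative to the median gene; genes lower numbered 396 with that pseudocount and 328 relative to the median gene. For promoters, genes higher numbered 741 at the 50th percentile and 237 with the larger pseudocount, genes lower 1739 and 679, and the median log2 ratio was 0 with no filter. The quotient of mean densities gave 700 genes lower in traveling ratio. With unordered library pairs included, an unadjusted p under 0.05 (limma) was reached by 762 genes for gene bodies, 132 for promoters and 128 for the ratio, out of 4950 genes rather than 1995 (15.4%, 2.67% and 2.59%); with the 2 compounds alone in the fit, 42 promoters reached it, and with the larger pseudocount 89 ratios. The promoter call was lost (0 genes) with the 2 compounds alone, without trend and robust fitting, with the larger pseudocount, after centring and with unordered pairs. Leaving out each library in turn gave 104 to 495 genes at that p for gene bodies (median -0.61 to -0.32), 77 to 247 after centring, 9 to 105 for promoters (0 to 3 called, median -0.79 to 0.0288) and 11 to 122 for the ratio (median -0.0786 to 0.378). The highest counts were those without A771726 library 1 (495, 247, 105 and 122). The promoter median turned to 0.0288 without A771726 library 2, and the ratio median to -0.0786 without leflunomide library 2 and to -0.0594 without A771726 library 1; the cause was not tested. A group left with 1 library is assumed to vary like the others. HSFX1, HSFX2 and ZCCHC18 came inside 2-fold with the larger pseudocount. At promoters 1 read is a large part of most values, which limits what can be told between the compounds there.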
